A study of Arabidopsis thaliana with 6 samples.

Results

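Cytochrome P450 genes of Arabidopsis thaliana were examined in 3 groups of 2 arrays. The genes were chosen by name: a nuclear gene was taken where its symbol began with CYP7, CYP8 or CYP9, or where its annotation named cytochrome P450, and where a probe set of the array was assigned to that gene alone. Cyclophilin genes, which share the CYP prefix, were left out. This gave 24 genes of 245 P450 loci in the annotation, with 1 probe set each, among 22746 probe sets tested. Of these, 19 belong to the CYP71B subfamily and 5 to other families (CYP51G2, CYP718, CYP78A9, CYP79A2 and CYP84A4, 1 gene per family). The other P450 loci, including most of those with a well described role in hormone or cuticle synthesis, were not analysed here.

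All samples were labelled as 3 weeks old, and no organ was named. The wild type Col-0 was kept in hydrocarbon-free air or given ethylene gas, a plant hormone, at 10 ppm. The labels disagree on the length of exposure: array titles give 24 h, while characteristics and design text give 4 h. The treatment protocol speaks of seedlings on plates. The other group was the transgenic line amiR-ETP1/2, which carries an artificial microRNA directed against the F-box protein genes ETP1 and ETP2 and for which the labels give no gas treatment. The labels give neither its promoter nor the number of independent lines. The replicates are called biological in the design text.

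Cytochromes P450 are haem proteins that insert an oxygen atom into small molecules, and most plant members sit in the membrane of the endoplasmic reticulum and take electrons from an NADPH-dependent reductase. In plants they act in the synthesis and breakdown of hormones, sterols, cutin, phenylpropanoids and defence compounds. The CYP71 family, the source of most genes described here, is large in Arabidopsis and lies partly in tandem rows of related genes. Its best known CYP71B member, PAD3 (CYP71B15), acts in the synthesis of the defence compound camalexin and was not analysed here.

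Each array gave 1 level per probe set, read as a log2 value from its range because the scale is not stated, so every fold rests on this reading, and the array medians lay between 4.39 and 4.46. Levels of different probe sets are not comparable as amounts of transcript, so each gene was compared with itself across groups. The ethylene arrays stood apart from the others: Pearson's r across probe sets was 0.791 to 0.810 between ethylene and air arrays and 0.975 to 0.981 between amiR-ETP1/2 and air arrays. For the actin control, the 3' probe set exceeded the middle one by 2.17 and 2.02 (log2) on the ethylene arrays, against 0.32 to 0.89 on the other 4. Other control ratios did not all run the same way. For actin, 3' minus 5' was 3.40 and 3.51 on the ethylene arrays, below the 4.04 to 5.20 on the other 4. For GAPDH it was 1.02 and 1.76 with ethylene, which overlapped 0.77 and 1.76 in air and lay above 0.52 and 0.66 in amiR-ETP1/2. The part of these differences in the results below was not tested. Of 4 markers of green tissue 2 were measured, and both were lower with ethylene: RCA, the activase of Rubisco, went from 13.31 and 13.21 in air to 9.12 and 9.16, and the antenna gene LHCB4.2 from 12.34 and 12.05 to 8.81 and 8.85. Of 4 root hair markers 2 were measured, EXPA7 (3.89 to 5.48 over the 6 arrays) and EXPA18 (3.76 to 4.35), and neither passed the test in any comparison. The 4 flower markers were not measured. The part of the green tissue markers in the P450 differences was not tested, and in whole samples fewer cells of a type and less RNA per cell cannot be told apart. The targeted gene ETP2 stood at 4.23 and 4.47 in amiR-ETP1/2 against 4.06 and 4.14 in air, a log2 difference of 0.25 with a standard error (SE) of 0.14 that did not pass the test (limma, adjusted p = 0.448). ETP1 was not analysed here.

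With ethylene, a few P450 genes moved far and most did not pass the test. CYP71B23, CYP71B22, CYP71B6, CYP71B24 and CYP718 were higher than in air, and CYP71B26 and CYP71B35 were lower. These 7 of 24 genes passed (29.2%), at an adjusted p under 0.05 in limma with Benjamini-Hochberg adjustment over all probe sets, beside 36% of all probe sets. Called higher were 5 members, beside 18.9% of all probe sets, and called lower were 2, beside 17.1%. The share of P450 genes that passed was thus no larger than that of all probe sets. The median log2 difference was 0.07 over the 24 genes and -0.0028 over all probe sets.

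**Figure D1:**
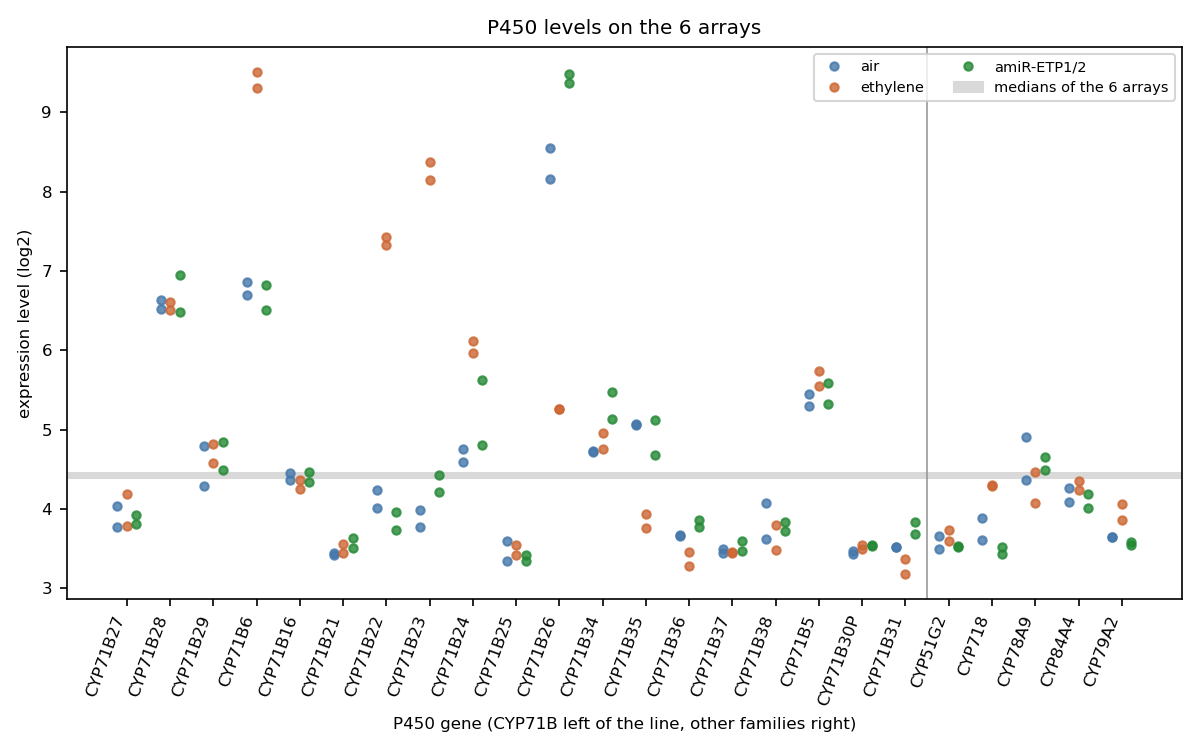
Expression levels (log2, vertical axis) of the 24 P450 genes on the 6 arrays, with 1 point per array, coloured by group, and CYP71B genes to the left of the vertical line. The ethylene points of CYP71B6, CYP71B22 and CYP71B23 lie far above those of air and amiR-ETP1/2, and those of CYP71B26 far below, while most other genes hold all 6 points near or under the grey band of array medians.

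CYP71B23 (AT3G26210, chromosome 3) had the largest rise among the members. Its levels were 8.37 and 8.14 on the ethylene arrays, 3.78 and 3.98 on the air arrays and 4.22 and 4.43 on those of amiR-ETP1/2. The ethylene arrays lay more than 3 log2 units above every other array. The difference of ethylene from air was 4.38 log2 units (SE 0.15, adjusted p = 1.74e-06), a 20.8-fold rise from a level below the array medians.

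CYP71B22 (AT3G26200), the direct neighbour of CYP71B23 on the chromosome, rose as well. Its levels were 7.33 and 7.43 on the ethylene arrays, 4.24 and 4.01 on the air arrays and 3.74 and 3.96 on those of amiR-ETP1/2. Ethylene and air arrays did not overlap, and the rise was 9.55-fold (log2 difference 3.26, SE 0.14, adjusted p = 4.19e-06). As for CYP71B23, both air arrays lay below the array medians.

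CYP71B6 (AT2G24180, chromosome 2) is known to convert indole-3-acetonitrile, an intermediate shared with camalexin synthesis, to indole-3-carboxylic acid. It stood at 9.31 and 9.51 on the ethylene arrays, 6.86 and 6.69 on the air arrays and 6.50 and 6.83 on those of amiR-ETP1/2. Both ethylene arrays lay above all others, and both air arrays were already above the medians. The rise was 6.19-fold (log2 difference 2.63, SE 0.16, adjusted p = 1.47e-05). It was the 1 measured gene of 7 in the list of P450 genes for camalexin and related defence or iron metabolites.

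CYP71B24 (AT3G26230) stood at 4.76 and 4.60 in air and 5.97 and 6.12 with ethylene, a 2.57-fold rise (log2 difference 1.36, SE 0.25, adjusted p = 0.00413). Its amiR-ETP1/2 arrays were 4.81 and 5.62, the second of them close to the ethylene arrays, and its SE was the largest among the members. CYP718 (AT2G42850, chromosome 2), the sole member of its family here, stood at 4.30 and 4.29 on the ethylene arrays, 3.61 and 3.89 on the air arrays and 3.43 and 3.52 on those of amiR-ETP1/2. All 6 values lay below the array medians, and the difference of 0.55 (SE 0.14, adjusted p = 0.018) was the smallest that passed. This call was lost without ethylene array 1 (adjusted p = 0.0925), without ethylene array 2 (adjusted p = 0.0917) or without air array 1 (adjusted p = 0.0872).

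CYP71B26 (AT3G26290, chromosome 3) had the largest fall. Its levels were 5.27 and 5.26 on the ethylene arrays, 8.15 and 8.56 on the air arrays and 9.37 and 9.49 on those of amiR-ETP1/2. The 3 groups did not overlap, with ethylene lowest and amiR-ETP1/2 highest. It fell 8.54-fold with ethylene (log2 difference -3.09, SE 0.16, adjusted p = 7.49e-06) and remained above the array medians. CYP71B35 (AT3G26310) stood at 3.93 and 3.76 on the ethylene arrays, 5.07 and 5.06 on the air arrays and 5.12 and 4.68 on those of amiR-ETP1/2. It went from above the medians to below them, a 2.33-fold fall (log2 difference -1.22, SE 0.17, adjusted p = 0.000958).

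**Figure D2:**
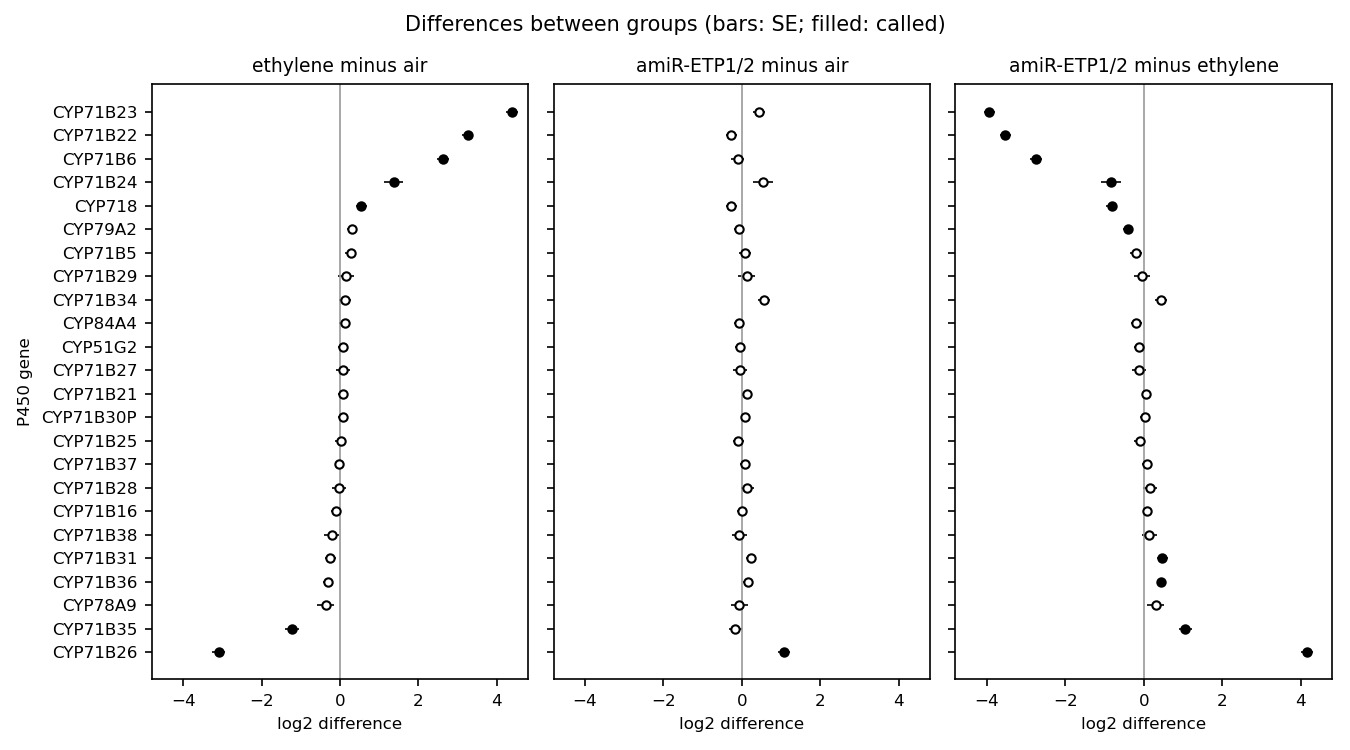
Log2 differences (horizontal axes) of the 24 P450 genes in the 3 comparisons, with bars for the SE and filled points for genes that passed the test; genes are ordered by the difference of ethylene from air in each panel. The differences run from -3.09 to 4.38 with ethylene and from -0.27 to 1.07 in amiR-ETP1/2 against air.

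The other 17 genes had differences of ethylene from air between -0.37 and 0.31, with an adjusted p of 0.103 or more. Among those outside CYP71B, CYP79A2, which makes the aldoxime of phenylalanine for benzylglucosinolate, stood at 3.65 in each air array and 4.06 and 3.86 with ethylene (difference 0.31, 95% interval 0.01 to 0.61, adjusted p = 0.103). CYP78A9, a promoter of seed and fruit growth, stood at 4.91 and 4.37 in air and 4.08 and 4.46 with ethylene, so its groups overlapped (difference -0.37, 95% interval -0.87 to 0.14). CYP84A4, of the synthesis of arabidopyrones, had a difference of 0.12 (95% interval -0.20 to 0.44). CYP51G2, annotated as a transcribed pseudogene and related to the sterol demethylase CYP51G1, had 0.08 (95% interval -0.22 to 0.38).

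Within CYP71B, 6 of 19 genes passed with ethylene (31.6%, beside 36% of all probe sets). Of the 19, 4 rose (beside 18.9%), 2 fell (beside 17.1%) and 13 did not pass, with a median difference of 0.07. Not all genes outside the calls were dim. CYP71B28 was well above the array medians on every array (6.63 and 6.52 in air, 6.50 and 6.61 with ethylene), and its difference was -0.02 with a 95% interval of -0.43 to 0.38. CYP71B5 stood at 5.46 and 5.29 in air and 5.55 and 5.74 with ethylene (difference 0.27, 95% interval -0.08 to 0.62), and CYP71B34 at 4.74 and 4.72 against 4.96 and 4.76 (difference 0.13, 95% interval -0.24 to 0.50). CYP71B31, known to oxidise the scent compound linalool in flowers, stood at 3.52 in each air array and 3.18 and 3.38 with ethylene (difference -0.24, 95% interval -0.55 to 0.07). The remaining CYP71B genes without a call (CYP71B16, CYP71B21, CYP71B25, CYP71B27, CYP71B29, CYP71B30P, CYP71B36, CYP71B37 and CYP71B38) had levels between 3.28 and 4.84 over all 6 arrays. Of these, CYP71B27 is annotated as a transcribed pseudogene, as is CYP51G2.

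Calls went with the mean signal over the 6 arrays in the whole data set. Of the 10 P450 genes whose mean over the 6 arrays was above the median of all means (4.51), 6 passed with ethylene (60%), beside 62.5% of all probe sets above it. Of the 14 at or below it, 1 passed (7.14%), beside 9.45% of all probe sets. This mean includes the ethylene arrays, so the split is not independent of the difference tested. CYP71B22 and CYP71B23 lay above 4.51 on the ethylene arrays alone, so their rise placed them among the 10. Below the median of every array lay 12 of the 24 genes (50%), beside 39.2% of all probe sets. The groups of ethylene and air arrays did not overlap for 15 of 24 genes (62.5%), beside 66.4% of all probe sets.

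**Figure D3:**
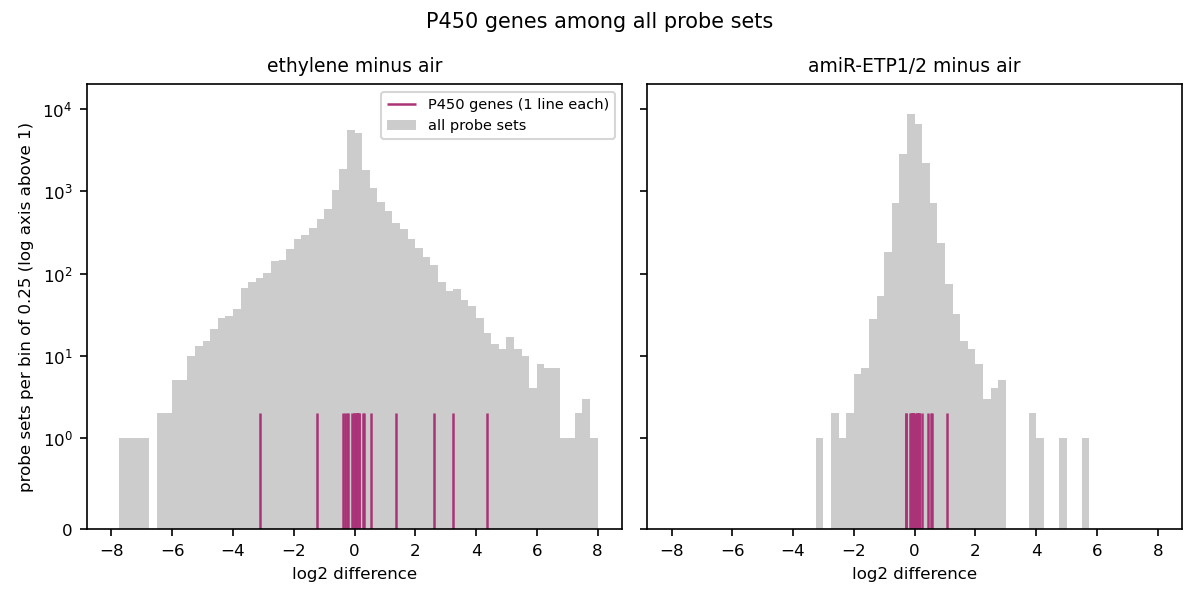
Number of probe sets (vertical axis, logarithmic above 1) by log2 difference (horizontal axis, bins of 0.25) for ethylene against air and for amiR-ETP1/2 against air, with 1 line for each of the 24 P450 genes; the height of the lines carries no value. Most P450 lines lie near 0 in both panels. Some lie beyond 1 log2 unit with ethylene, as do many of all probe sets. With ethylene, 458 probe sets fell between -1.25 and -1 and 578 between 1 and 1.25.

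The CYP71B genes on chromosome 3 allow neighbours to be compared. In the TAIR10.1 annotation, which was used for gene order alone, the stretch from CYP71B16 to CYP71B37 holds 25 genes, of which 18 are P450 genes, and 11 of these were measured. With ethylene 5 of the 11 passed (45.5%, beside 36% of all probe sets), and among genes with a probe set of their own these calls fell in 2 places. A probe set shared by CYP71B19 and CYP71B20, which lie between CYP71B16 and CYP71B21, was also higher with ethylene (difference 0.60, limma adjusted p = 0.0129). The 7 P450 genes of the row without a probe set of their own have no separate reading. CYP71B22 and CYP71B23, next to each other, and CYP71B24, separated from them by CYP71B3, rose. Further along, after CYP71B25 (difference 0.01, SE 0.14, not called), CYP71B26 and CYP71B35 fell, with CYP71B34 and the pseudogene CYP71B33 between them. CYP71B16 and CYP71B21, which come before CYP71B22 (differences -0.10 and 0.07), and CYP71B36 and CYP71B37 at the end of the row (-0.30 and -0.02) did not pass.

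The 3 nearest measured genes on each side of the row, none of them a P450 gene, had ethylene differences between -0.23 and 0.22, and none passed (lowest adjusted p = 0.371). Of 8 measured CYP71B genes outside this row, CYP71B6 was the 1 that passed with ethylene (12.5%, beside 36% of all probe sets). Related CYP71B genes can share sequence, and whether probes of one gene also bound transcripts of a neighbour was not tested, because probe sequences were not used here.

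**Figure D4:**
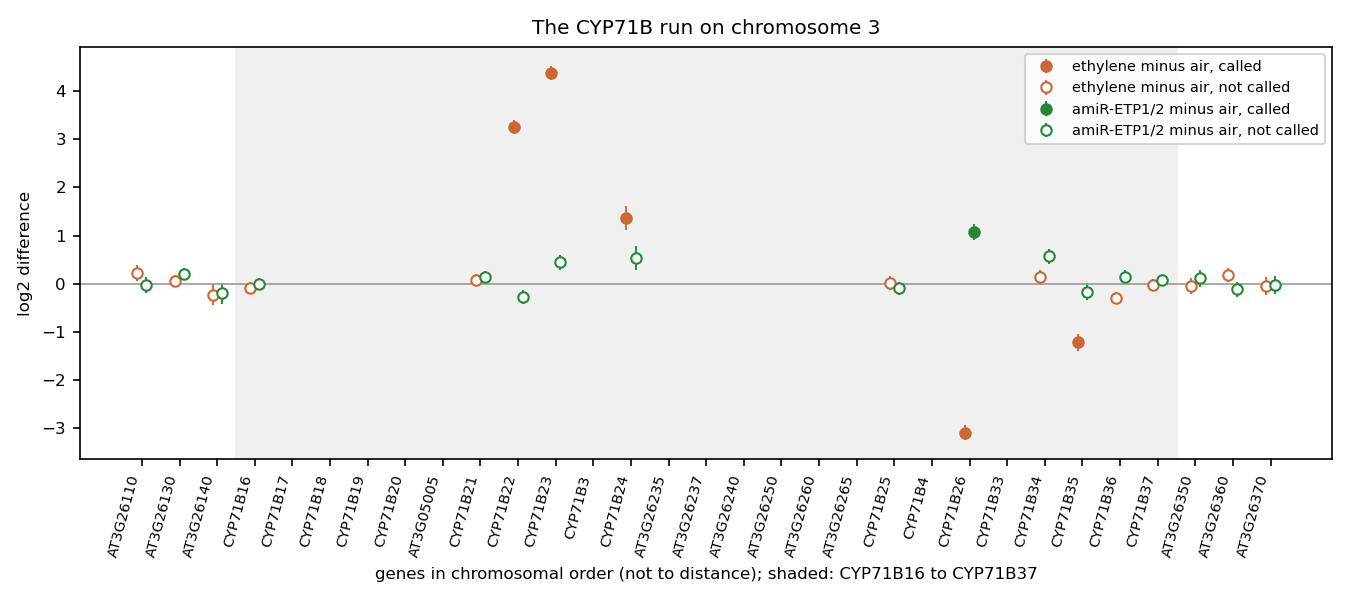
Log2 differences (vertical axis) of the measured genes in and around the CYP71B row on chromosome 3, in chromosomal order and not to distance, for ethylene against air (orange) and amiR-ETP1/2 against air (green), with bars for the SE and filled points for calls. CYP71B22, CYP71B23 and CYP71B24 lie above 0 and CYP71B26 and CYP71B35 below 0 with ethylene; genes without a point were not measured by a probe set of their own.

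In amiR-ETP1/2, CYP71B26 alone of the 24 genes passed against air (4.17% of members, beside 0.62% of all probe sets, 0.347% higher and 0.273% lower; 3 members had an unadjusted p under 0.05). It was higher, the opposite direction to its ethylene difference, by 1.07 log2 units or 2.10-fold (SE 0.16, adjusted p = 0.0435). Both amiR-ETP1/2 arrays, at 9.37 and 9.49, lay above both air arrays, at 8.15 and 8.56. The call was lost without any 1 of the 6 arrays: without air array 1 the difference was 0.87 (adjusted p = 0.0938), without air array 2 it was 1.27 (adjusted p = 0.0549), and the adjusted p was 0.063 and 0.0777 without amiR-ETP1/2 array 1 or 2 and 0.192 without either ethylene array. It was also lost with a block for the replicate number (adjusted p = 0.0855).

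The other 23 genes had differences between -0.27 and 0.57 in amiR-ETP1/2, with an adjusted p of 0.162 or more. CYP71B34 stood at 5.13 and 5.48 against 4.74 and 4.72 in air (difference 0.57, SE 0.16, adjusted p = 0.162), and CYP71B23 at 4.22 and 4.43 against 3.78 and 3.98 (difference 0.44, SE 0.15, adjusted p = 0.236). CYP71B24 had a difference of 0.53 (SE 0.25, adjusted p = 0.38), which was 0.94 without amiR-ETP1/2 array 1 and 0.12 without array 2. CYP718 had -0.27 (SE 0.14, adjusted p = 0.418), which was -0.41 without air array 1, -0.13 without air array 2 and -0.03 with the median of each chromosome removed. CYP71B26 was 1 of the 10 genes with a mean above the median of all means, where 1.14% of all probe sets passed, and of the 14 genes at or below it none passed, beside 0.0967%. The groups did not overlap for 11 of 24 genes (45.8%), beside 44.5% of all probe sets. CYP71B6, which rose with ethylene, had a difference of -0.11 with a 95% interval of -0.48 to 0.26, CYP71B22 of -0.27 (95% interval -0.61 to 0.07) and CYP71B35 of -0.16 (95% interval -0.56 to 0.24). The comparisons of ethylene and of amiR-ETP1/2 with air share the air arrays, so their differences for a gene are not independent.

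The levels of amiR-ETP1/2 and of ethylene-treated Col-0 were also compared with each other, which tests directly where the line and the treatment differed. Of the 24 genes 10 passed (41.7%), beside 38.4% of all probe sets, with 4 higher in amiR-ETP1/2 (beside 18.2%) and 6 lower (beside 20.2%). After quantile normalization or median centring the split was 5 higher and 5 lower. Of the 10 genes above the median of all means 6 passed, beside 64.2% of all probe sets there, and of the 14 at or below it 4 passed, beside 12.5%. That mean again includes the ethylene arrays. CYP71B22 and CYP71B23 were among the 10 through those arrays alone, so this split is not independent of the difference tested. The groups did not overlap for 16 genes (66.7%), beside 71% of all probe sets. CYP71B26 was 18.0-fold higher in amiR-ETP1/2 than with ethylene (log2 difference 4.17, SE 0.16, adjusted p = 2.29e-06), and CYP71B35 was 2.08-fold higher (adjusted p = 0.00189). CYP71B23, CYP71B22 and CYP71B6 were lower in amiR-ETP1/2 (log2 differences -3.93, -3.53 and -2.74), which is 15.3-fold, 11.5-fold and 6.69-fold, with an adjusted p of 1.23e-05 or less.

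Differences of less than 1 log2 unit between the line and the treatment were found for 5 further genes. CYP718 and CYP71B24 were lower in amiR-ETP1/2 (log2 differences -0.82, adjusted p = 0.00254, and -0.83, adjusted p = 0.0355). CYP71B31 was higher, at 3.83 and 3.68 against 3.18 and 3.38 (difference 0.48, SE 0.13, adjusted p = 0.0245), and CYP71B36 was higher by 0.45 (adjusted p = 0.025). CYP79A2 was lower, at 3.59 and 3.54 against 4.06 and 3.86 (difference -0.39, SE 0.13, adjusted p = 0.0449). Of these 5 calls, that of CYP718 held without any 1 of the 6 arrays. Without ethylene array 1 the calls of CYP71B24, CYP71B31, CYP71B36 and CYP79A2 were lost (adjusted p = 0.118, 0.146, 0.144 and 0.221), and the count was 6 in place of 10. Without amiR-ETP1/2 array 1 these 4 calls were lost again (adjusted p = 0.107, 0.115, 0.0552 and 0.105), and the difference of CYP71B24 was -0.42. The call of CYP79A2 was lost without any 1 of the arrays, that of CYP71B24 without any but amiR-ETP1/2 array 2, and that of CYP71B36 without any 1 ethylene or amiR-ETP1/2 array. With the median of each chromosome removed, CYP71B31 had 0.28 (adjusted p = 0.224), CYP71B36 0.25 (adjusted p = 0.252) and CYP79A2 -0.08 (adjusted p = 0.756).

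Genes of pathways in which P450 enzymes act were read beside the members. Of 78 such genes listed, 6 were measured, too few to describe a pathway. Of all probe sets, 17.1% were called lower with ethylene. Among probe sets with a mean above the median of all means, 62.5% were called in either direction. For glucosinolates, the pathway of CYP79A2, 2 of 13 listed genes were measured and both fell with ethylene: BCAT4, an aminotransferase of methionine side chain extension, from 11.38 and 11.29 to 4.33 and 4.25, and the glucosyltransferase gene UGT74B1, 2.15-fold (adjusted p = 0.0013). For phenylpropanoids and flavonoids, to which CYP84A4 is related, 2 of 16 were measured and both fell: HCT, which acts in lignin synthesis, 4.66-fold and DFR, which acts in anthocyanin synthesis, 2.81-fold. LYCB, the lycopene cyclase of carotenoid synthesis, fell 1.86-fold (1 of 7 listed genes measured). WSD1, of wax ester synthesis, had a difference of -0.56 that did not pass (adjusted p = 0.212, 1 of 9 measured). In amiR-ETP1/2 DFR alone of these 6 genes passed against air, beside 0.62% of all probe sets. It stood at 7.18 and 8.15 against 5.87 and 5.34 (log2 difference 2.06, SE 0.31, limma adjusted p = 0.0475). This call lay close to the threshold, and its dependence on single arrays or on the processing was not tested. No gene of the lists for jasmonate, abscisic acid, gibberellin, brassinosteroid, sterol or chlorophyll breakdown was measured.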

How the data were processed

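Total RNA was measured on 6 Affymetrix ATH1 arrays, 2 per group. The deposited values are levels on a log2 scale, 1 per probe set, processed by the authors; log2 was read from their range. Neither the scale nor the authors' background correction and normalization is stated in the sources. Per the submitters' processing notes limma was used, with no version. Any compression of low signals carries over into the differences. The number of arrays limits the precision.

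Values were used as deposited. After 7 control probe sets were left out, limma 3.58.1 (R 4.3.3) estimated the 3 group means from all 6 arrays, with 3 residual and 4.15 prior degrees of freedom; p-values were two-sided, adjusted (Benjamini-Hochberg) over 22746 probe sets. SE are moderated, 95% intervals are for 1 gene at a time, and n = 2 arrays per group. The fit was also run on simulated data with independent normal noise and a small share of changed probe sets. That share was far below the 36% called with ethylene here, so the simulation does not give the error rate for these data.

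Single-gene probe sets (13513) came from the platform annotation; 503 named several genes and 8737 none. Symbols and gene order came from TAIR10.1. No member had a second probe set. Members and lists were chosen with earlier results of these data known. The 4 of 88 role-listed P450 genes that were measured, up to 10 rises and 10 falls with ethylene, the 5 smallest p in amiR-ETP1/2 and the 3 largest rises and falls between amiR-ETP1/2 and ethylene were named by rule; the other members are named so that all are accounted for, with results known. Alternatives were other normalizations, a filter on low values, a replicate block, fewer arrays, eBayes options and chromosome medians.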

Additional observations from a re-analysis of the deposited data

Results flagged for a closer look

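A probe set outside the main comparisons, because it is shared by CYP71B19 and CYP71B20, gave a signal above the air controls. Its levels were 8.55 and 8.28 in air, 9.01 in each ethylene array, and 8.28 and 8.44 in amiR-ETP1/2. The difference of ethylene from air was 0.60 log2 units (SE 0.14, limma adjusted p = 0.0129), and both genes lie in the chromosome 3 row between CYP71B16 and CYP71B21. Which of the genes gave the signal cannot be told apart.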

How the results depend on the processing

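The count of P450 genes with ethylene was 6 to 9 over all alternatives and 6 to 7 without single arrays; the trend and robust options added CYP79A2 (adjusted p = 0.0447) and CYP71B36 (adjusted p = 0.0358). In amiR-ETP1/2 against air the count of 1 became 0 with a replicate block, with the 4 compared arrays alone and in every fit without an array (0 to 0), and was 1 in the other alternatives. Between amiR-ETP1/2 and ethylene the count of 10 was 6 after the dimmest 40% of probe sets were dropped, where 13 of the 24 genes remained to be tested, and 6 to 8 without single arrays; the replicate block gave 9, and the 4 compared arrays alone gave 8, without CYP71B24 (adjusted p = 0.0519) and CYP79A2 (adjusted p = 0.0591). CYP79A2 in that comparison was -0.36 and -0.37 after quantile normalization and median centring (adjusted p = 0.0565 and 0.0694). With chromosome medians removed, an alternative chosen after seeing the data, the count was 7 (2 higher, 5 lower), without CYP71B31, CYP71B36 and CYP79A2. In this fit the median level on each chromosome, over probe sets with a mean above 6, was taken off each array. It kept single-gene probe sets of nuclear genes alone, so the p adjustment covered fewer probe sets. Separately, medians of differences by chromosome ran from -0.25 to 0.35 in amiR-ETP1/2 against air and from -0.07 to 0.04 with ethylene. These are not the amounts taken off: with ethylene CYP718 went from 0.55 to 0.79 and CYP71B22 from 3.26 to 3.37. The causes were not tested. No called gene turned its direction in any alternative in which it was tested. Replicate numbers link the arrays by number alone: deviations of same-numbered arrays correlated at -0.14, -0.17 and 0.07. The alternative probe set per gene could not be run, since each gene had 1.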
